A study of Mus musculus with 8 samples.

Results

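The 6 genes described here are Gm26880, Gm42031, Gm43305 and Gm42427, which are gene models without a functional name, and Malat1 and Neat1, which are nuclear long RNAs of known role. They are 6 of the 48795 genes in the deposited expression tables of peritoneal macrophages (pMacs). The 4 Gm RNAs were chosen by their measured values, because they rose together in 3 of the 4 CD1d-KO libraries. Their genotype difference is therefore given as a description with no test, while Malat1 and Neat1, taken for reference, were tested. Each member was matched by its Ensembl identifier to its symbol in an annotation of the same mouse genome build.

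Long non-coding RNAs are transcripts without a recognised protein product. Many stay in the nucleus, and many mouse models of this class carry pieces of endogenous retroviruses, the inherited remains of retroviral insertions whose long terminal repeats (LTRs) hold promoter and polyadenylation signals. Such insertions are usually kept silent by DNA methylation and by KRAB zinc finger proteins that recruit TRIM28 and SETDB1. Malat1 gathers in nuclear speckles, where splicing factors are stored, and Neat1 is the scaffold of paraspeckles. Malat1 and the long Neat1 isoform end in a triple helix in place of a poly(A) tail.

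The libraries hold polyadenylated RNA of pMacs from peritoneal lavage. Each came from a mouse of its own, and 4 libraries are WT (C57BL/6) and 4 CD1d-KO, numbered 1, 2, 3 and 5 in either genotype. The study describes the controls as littermates and the mice as age- and sex-matched, between 8 and 16 weeks old, and the labels name no stimulus. Its methods name a pair of CD1d-deficient lines, CD1d flox mice crossed with PGK-Cre, in which the ubiquitous PGK promoter drives Cre, and the deletion strain B6.129S6-Del(3Cd1d2-Cd1d1)1Sbp/J. Which line gave these libraries is not given in the sources used here, and the part of strain background cannot be told apart from that of genotype. The libraries held between 13698864 and 19059432 expected counts, which are read numbers that RSEM assigns to a gene, including fractions of reads that fit several genes. Values below are normalised counts, that is, expected counts scaled to a common library size by TMM, unless TPM, a share of transcripts corrected for their length, is named.

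The deleted gene Cd1d1 was checked in every library first. It had 68.2, 175, 96.1 and 141 normalised counts in WT libraries 1, 2, 3 and 5, and 1.14, 0 and 1.10 in CD1d-KO libraries 2, 3 and 5. The library labelled CD1d-KO replicate 1 held 60.6, just under the lowest WT library. Its label is therefore not borne out by Cd1d1. Differences without replicate 1 are also given for the 4 Gm RNAs and the interferon-stimulated genes. For the genes related to the Gm RNAs in sequence they are given as counts and for some single genes. The summed level of 11 markers of large peritoneal macrophages was between 204208 and 229156 in WT libraries and between 202846 and 250979 in CD1d-KO libraries. Markers of small peritoneal macrophages and dendritic cells summed to between 5784 and 10481 in WT and between 4070 and 13017 in CD1d-KO libraries. Those of neutrophils summed to between 2607 and 4754 in WT and 4116 and 6199 in CD1d-KO libraries, with 2 of 3 tested higher and 1 lower. Those of mast cells summed to between 384 and 1899 in WT and 931 and 3342 in CD1d-KO libraries. DESeq2 called 1 mast cell marker, Hdc, but of 5 tested, 1 was higher and 4 lower in CD1d-KO, with a median log2 difference of -0.48. Without replicate 1 the median over 4 tested mast cell markers was -1.06. In that fit 1 was higher and 3 were lower at an unadjusted p under 0.05, against 720 and 477 of 12964 tested genes. The sum thus does not stand for the mast cell markers one by one. Markers of T and NK cells summed to at most 122, those of eosinophils to at most 201 and those of mesothelial cells to at most 12.9, with Ncr1, Ear6 and Krt19 at 0 throughout.

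The 4 Gm RNAs lie on 4 different chromosomes and share sequence. In build GRCm38, Gm26880 (ENSMUSG00000096979, lincRNA) spans chr4:146509094-146511764 on the minus strand with 2 exons, and Gm42031 (ENSMUSG00000110386, lincRNA) spans chr8:85125872-85132289 on the minus strand with 2 exons. Gm43305 (ENSMUSG00000105703, processed transcript) is a single exon at chr14:54292443-54297456 on the minus strand. Gm42427 (ENSMUSG00000105263), of the biotype TEC for models that still await experimental support, is a single exon at chr5:44137980-44143271 on the plus strand. None lies on chromosome 3, which carries the deleted locus in the strain name above. Over a stretch of 147 bases without gaps the 4 transcripts differed at 6 positions, shown in capitals, and the longest run identical in all 4 was 77 bases. This stretch is printed because it is what the 4 RNAs have in common outside the measurements. It is given as transcribed for Gm42031 (chr8:85132092-85132238, minus strand), Gm43305 (chr14:54292797-54292943, minus strand) and Gm42427 (chr5:44142649-44142795, plus strand). For Gm26880 (chr4:146511258-146511404, plus strand) it is the strand opposite to the transcript.
Gm42031: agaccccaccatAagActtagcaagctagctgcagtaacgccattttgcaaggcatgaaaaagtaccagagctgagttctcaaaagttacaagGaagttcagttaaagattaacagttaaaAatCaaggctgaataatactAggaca
Gm43305: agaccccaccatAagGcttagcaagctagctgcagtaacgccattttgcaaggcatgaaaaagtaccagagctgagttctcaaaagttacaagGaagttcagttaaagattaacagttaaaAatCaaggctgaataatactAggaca
Gm42427: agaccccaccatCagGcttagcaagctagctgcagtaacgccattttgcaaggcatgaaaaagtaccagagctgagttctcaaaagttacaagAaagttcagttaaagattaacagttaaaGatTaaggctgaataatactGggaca
Gm26880: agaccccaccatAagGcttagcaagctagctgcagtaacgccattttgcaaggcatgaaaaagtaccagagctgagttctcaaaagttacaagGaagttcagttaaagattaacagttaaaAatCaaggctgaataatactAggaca

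Identity to Gm42031 over these bases was 99.3% for Gm43305, 95.9% for Gm42427 and 99.3% for Gm26880. As background, these letters are of the kind found in the upstream part of LTRs of endogenous murine leukaemia virus-related proviruses. No repeat annotation was used here, so this rests on general knowledge of such sequence and not on an alignment to a repeat library. The first copy found in Gm42031 began 51 bases from its 5′ end. The stretch ended 354 bases before the 3′ end of Gm43305 and 476 bases before that of Gm42427. It thus sits at the start of the first RNA and near the end of both others. The run of 77 identical bases was present in 8 annotated genes: the 4 Gm RNAs, Gm10524, AI506816, Cnbd2 and Apobec3, the last a cytidine deaminase that restricts retroviruses.

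The promoters of Gm42031 and Gm43305 were also close copies. RefSeq gives windows of 300 bases, from 250 bases before to 50 after a gene start (build GRCm38.p6), for 4 of the 6 members, with no window for Gm26880 and Neat1. Those of Gm42031 (chr8:85131765-85132064, minus strand) and Gm43305 (chr14:54297439-54297738, minus strand) were 98.0% identical and are printed with the 6 differing positions in capitals.
Gm42031 promoter: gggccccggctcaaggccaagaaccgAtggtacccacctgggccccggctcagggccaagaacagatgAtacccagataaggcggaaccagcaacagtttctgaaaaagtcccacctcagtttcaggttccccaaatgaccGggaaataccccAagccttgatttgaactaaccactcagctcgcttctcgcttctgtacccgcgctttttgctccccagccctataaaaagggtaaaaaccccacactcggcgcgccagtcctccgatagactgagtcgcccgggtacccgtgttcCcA
Gm43305 promoter: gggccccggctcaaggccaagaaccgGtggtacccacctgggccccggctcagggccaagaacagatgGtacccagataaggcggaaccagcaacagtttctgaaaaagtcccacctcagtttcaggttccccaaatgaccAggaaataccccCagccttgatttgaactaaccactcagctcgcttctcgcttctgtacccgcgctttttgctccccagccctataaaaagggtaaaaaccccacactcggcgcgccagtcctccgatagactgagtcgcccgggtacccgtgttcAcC

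Both windows hold TATAAAA, the TATA box sequence searched on both strands, which 5.48% of all 32851 RefSeq promoter windows hold. The window of Gm42427 and that of Malat1 do not. The interferon response core GAAANNGAA was in none of the 4 windows, against 8.56% of all windows. In all, 5 other windows shared a 20-base run with that of Gm42031, among them Gm43305 with 206 runs and, next, Gm40843 with 105. The RefSeq start of Gm42031 lies inside the Ensembl transcript, so its window covers transcribed bases there, whereas that of Gm43305 lies mostly before the Ensembl start.

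Gm42031 had the widest difference of the 6 members. Its normalised counts were 274, 188, 281 and 235 in WT libraries 1, 2, 3 and 5, and 3913, 373, 3926 and 2489 in CD1d-KO libraries 1, 2, 3 and 5. Libraries 1, 3 and 5 of the CD1d-KO group stood at least 8.85-fold above the highest WT library, and library 2 of that group stood 1.33-fold above it, so the groups did not overlap. The fitted log2 difference, CD1d-KO minus WT, was 3.13 ± 0.44 (SE, n = 4 per group), with pair values between 0.99 and 3.83.

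Gm26880, the RNA whose transcript runs opposite to the shared stretch, had 170.0, 123, 175 and 93.4 normalised counts in the WT libraries in the same order. It had 1342, 371, 1021 and 858 in the CD1d-KO libraries. Library 2 of the CD1d-KO group was again the lowest of its group, yet it was 2.12-fold above the highest WT library. The fitted log2 difference was 2.60 ± 0.23 (SE).

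Gm43305, the most abundant Gm RNA by count, had 1111, 783, 1157 and 1090 normalised counts in WT libraries and 6598, 1125, 6013 and 5128 in CD1d-KO libraries 1, 2, 3 and 5. Here library 2 of the CD1d-KO group fell inside the WT range, so the groups overlapped by that 1 library. The fitted log2 difference was 1.96 ± 0.31 (SE).

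Gm42427 was the least abundant. It had 115, 78.5, 101 and 92.8 normalised counts in WT libraries and 697, 134, 423 and 391 in CD1d-KO libraries 1, 2, 3 and 5, with no overlap. The fitted log2 difference was 1.96 ± 0.25 (SE). Its expected counts were whole numbers in 8 of 8 libraries (tolerance 0.005), so RSEM split none of its reads with another gene, whereas those of the other 3 Gm RNAs were fractional in every library.

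Groups did not overlap for 3 of the 4 Gm RNAs. Over all 13040 tested genes, all 4 CD1d-KO libraries stood above all 4 WT libraries in 1.04%, and CD1d-KO libraries 1, 3 and 5 stood above all WT libraries in 2.98%. Since the Gm RNAs were selected on this contrast, nothing is read from their count. Each of the 4 was higher in CD1d-KO within 4 of 4 replicate numbers. Without replicate 2, the fitted log2 differences were 2.90 for Gm26880, 3.69 for Gm42031, 2.40 for Gm43305 and 2.27 for Gm42427. Without replicate 1, whose CD1d-KO library retained Cd1d1, they were 2.45, 2.84, 1.74 and 1.69 in the same order.

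**Figure D1:**
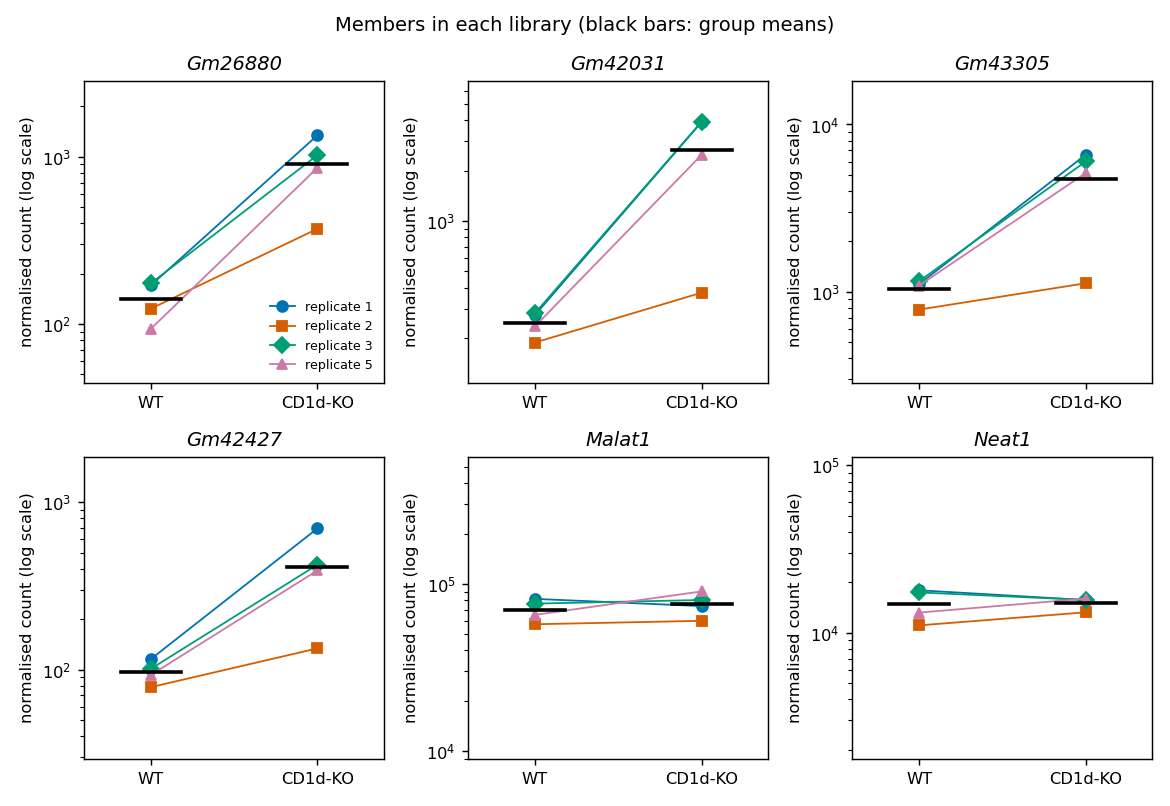
Normalised counts (log axis, spanning a 64-fold range in each panel) of the 6 members in WT and CD1d-KO libraries, with lines joining the libraries of 1 replicate number and black bars for group means (n = 4). The Gm RNAs rise steeply in replicates 1, 3 and 5 and less in replicate 2, while the groups overlap for Malat1 and Neat1.

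The Gm RNAs were chosen for their rise, so their place among genes of the same types describes that choice and nothing is read from it. Besides the 4 members, 1093 genes of long RNA types passed the filter on low counts. In 39 of these, CD1d-KO libraries 1, 3 and 5 all stood above every WT library, but in 0 of them by more than 2-fold. The 4 Gm RNAs exceeded the highest WT library by at least 3.39-fold in those libraries. As a class, the other long RNAs had a median log2 difference of 0.09, against 0.0047 over all tested genes, and 0 of 1093 were called by edgeR at adjusted p under 0.01 and fold above 1.5. At an unadjusted p under 0.05, 55 of them (5.03%) were higher and 14 (1.28%) lower, against 7.35% and 5.01% of all tested genes. DESeq2 called 2 of the 1093, where it called 0.795% of all genes it tested.

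On the TPM scale, which corrects for length, Gm43305 was the highest Gm RNA in WT cells, at 21.8 ± 4.83 TPM (SD, n = 4). Gm42031 followed with 13.8 ± 3.32 TPM and Gm26880 with 11.6 ± 3.83 TPM, a pair whose ranges overlap, and Gm42427 was last with 1.90 ± 0.485 TPM. In CD1d-KO cells the order changed, with Gm42031 at 152 ± 96.9 TPM, Gm43305 at 101 ± 56.1 TPM, Gm26880 at 74.9 ± 38.6 TPM and Gm42427 at 8.23 ± 5.24 TPM. These SDs are wide because library 2 had only 19.6 TPM of Gm42031 and 22.1 TPM of Gm43305. The ratio of Gm42031 to Gm43305 was between 0.576 and 0.660 in WT libraries and was above 1 in CD1d-KO libraries 1, 3 and 5, at most 1.74, with 0.887 in library 2. The estimated mix of the close copies thus differed along with their sum. The part that the assignment of reads fitting both copies has in this was not tested.

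The 4 Gm RNAs summed to between 1172 and 1714 normalised counts in WT libraries. In CD1d-KO libraries 1, 2, 3 and 5 the sum was 12550, 2002, 11384 and 8866. Library 1, in which Cd1d1 was retained, had the highest sum, and library 2, in which Cd1d1 was nearly gone, had the lowest of its group. The summed level of 9 B cell markers was lowest in replicate 2 of both genotypes (1364 in WT and 779 in CD1d-KO), and was 4576, 2554 and 6388 in CD1d-KO libraries 1, 3 and 5, against 2608 to 3881 in the other WT libraries. Markers of T and NK cells (61.0 in WT and 45.8 in CD1d-KO) and of erythroid cells (1.14 and 2.29) were also lowest in replicate 2 of both genotypes, and erythroid markers reached 267 in CD1d-KO library 3. Markers of mesothelial cells, none of which had enough counts to be tested, summed to 12.9, 2.29, 6.40 and 8.79 in CD1d-KO libraries 1, 2, 3 and 5, against 3.22 to 5.24 in WT libraries. Markers of small macrophages and dendritic cells were lowest in CD1d-KO library 2, at 4070 against 8184 to 13017 in the other 3 libraries of that group, and at an unadjusted p under 0.05, 0 of 8 were higher and 1 lower in CD1d-KO. At an unadjusted p under 0.05, 0 of 9 B cell markers, 0 of 1 tested T and NK cell marker and 0 of 2 tested erythroid markers differed between genotypes. The part of RNA from these cells in the Gm values was not tested, and in bulk samples fewer cells of a type and less RNA per cell cannot be told apart.

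**Figure D2:**
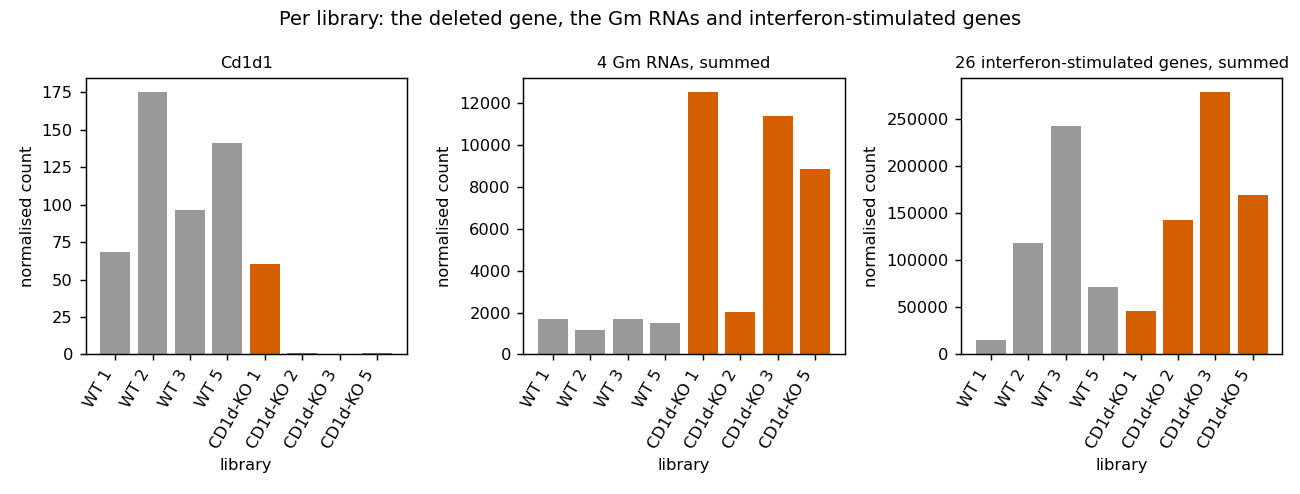
Normalised counts per library (bars, WT in grey, CD1d-KO in orange) of Cd1d1, of the 4 Gm RNAs summed and of 26 interferon-stimulated genes summed. The Gm sum is high in CD1d-KO libraries 1, 3 and 5, and Cd1d1 is present in CD1d-KO library 1. The interferon sum varies widely within both genotypes.

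Reads of such copies can be assigned to the wrong one, so genes that share sequence with the Gm RNAs were described next. Alignments of at least 75 bases, the length of a read, at 95% identity or more as a whole were found in 14 other annotated genes. These 14 are called related genes below. Alignments of lower identity were left out even where they held identical runs, so Apobec3, with the run of 77 bases, is not among them. Identical windows of 75 bases were shared with 11, 10, 12 and 10 genes for Gm26880, Gm42031, Gm43305 and Gm42427, other members included. Windows of that length found in no other gene, allowing no mismatch, made up 70.1% of the windows of Gm26880, 65.1% of Gm42031, 88.7% of Gm43305 and 85.6% of Gm42427. The share was 94.5% for Malat1 and 99.2% for Neat1. The closest pair among members was Gm42031 and Gm43305, with 748 bases at 98.7% identity. The values of single Gm RNAs are uncertain where a read fits several of these copies.

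Of the 14 related genes, 9 passed the filter and 0 were called by edgeR, where 0.0383% of all tested genes were called. At an unadjusted p under 0.05, 2 of the 9 were higher and 0 lower, against 7.35% and 5.01% of all tested genes. Those 2 were Cnbd2 and Cep85, and DESeq2 called both, where it called 0.795% of all genes it tested. Without replicate 1, 3 of the 9 were higher and 0 lower at the unadjusted threshold, against 720 and 477 of all 12964 tested genes. In that fit D10Wsu102e had a log2 difference of 0.20 ± 0.08 (SE), against 0.12 ± 0.08 with all replicates.

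Cnbd2, which encodes a protein with a cyclic nucleotide-binding domain, shares 351 bases at 96.0% identity with Gm42031. It had 111, 78.7, 148 and 80.5 normalised counts in WT libraries and 449, 198, 322 and 311 in CD1d-KO libraries 1, 2, 3 and 5, without overlap. Its log2 difference was 1.62 ± 0.17 (SE), with adjusted p = 0.0170 by edgeR and 3.79e-10 by DESeq2. Without replicate 1 it was 1.46 ± 0.18 (SE), with adjusted p = 0.0545 by edgeR.

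Cep85, which encodes a centrosomal protein, shares only 75 bases at 98.7% identity with Gm42031. It had 1022, 899, 1053 and 837 normalised counts in WT libraries and 2093, 1210, 1625 and 1807 in CD1d-KO libraries, again without overlap. Its log2 difference was 0.80 ± 0.12 (SE), with adjusted p = 0.0458 by edgeR and 5.22e-06 by DESeq2. Without replicate 1 it was 0.72 ± 0.13 (SE), with adjusted p = 0.150 by edgeR.

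The other 5 related genes had too few counts to be tested. Several genes with longer or closer matches did not pass the test. Gm10524, with 626 bases at 99.7% identity to Gm42427, had a log2 difference of -0.20 ± 0.22 (SE). Chd9, a chromatin remodeller with 337 bases at 98.5% identity to Gm42031, had 0.07 ± 0.07, and AI506816 had -0.12 ± 0.13. Gm17249, with 103 bases at 95.1% identity to Gm42427, had -0.50 ± 0.32, from at most 18.9 normalised counts in WT libraries. It was lower in CD1d-KO within each replicate number. Summed to 1 feature, the 14 related genes had a log2 difference of 0.26 ± 0.07, and together with the 4 Gm RNAs 1.09 ± 0.17. The summed normalised counts of the 14 were between 4814 and 5349 in WT libraries and between 5734 and 6864 in CD1d-KO libraries.

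**Figure D3:**
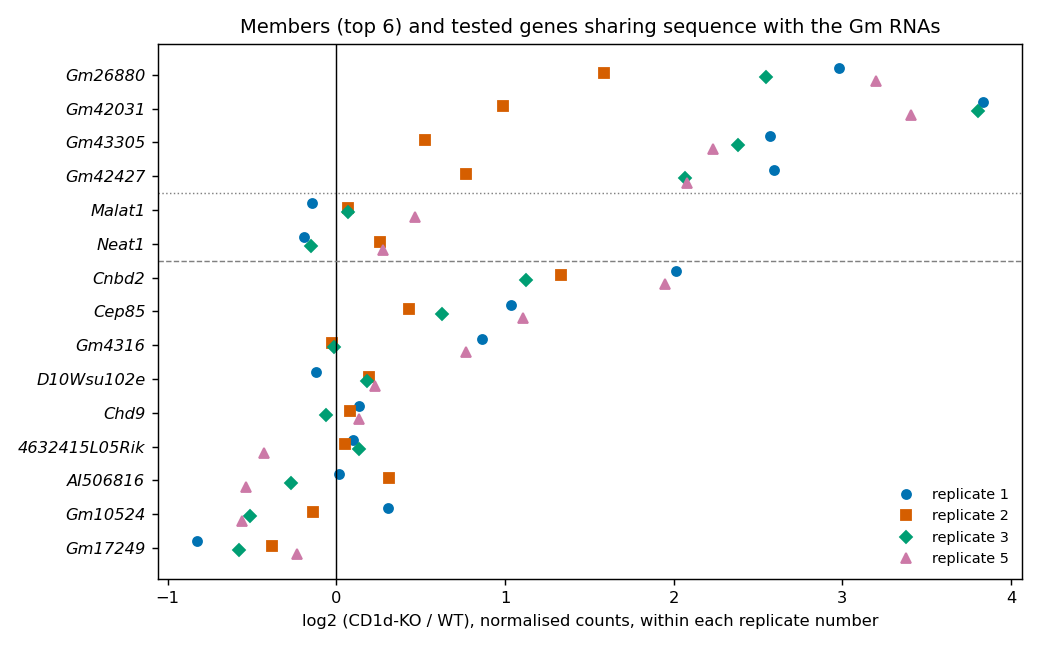
Log2 ratio of CD1d-KO to WT normalised counts within each replicate number (1 point per replicate number, 4 per gene) for the 6 members and the 9 tested related genes. The Gm RNAs lie right of 0 in 4 of 4 pairs with replicate 2 lowest, and Cnbd2 and Cep85 lie right of 0 as well. Gm17249 lies left of 0 in 4 of 4 pairs, and the remaining related genes have pairs on both sides of 0.

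Across the 8 libraries, the log2 levels of the 4 Gm RNAs had Pearson correlations with each other between 0.937 and 0.995, which their choice for a common rise fixes in part. The 10 genes most like their mean pattern, of 13036 other tested genes, are named as a description. They were Cep85 (r = 0.975), Crebrf (0.958), Cnbd2 (0.955), Cacna2d1 (0.946), Klhl38 (0.946), Ctsf (0.939), Tmem181b-ps (0.936), Gm17039 (0.930), Rmnd1 (0.929) and Mau2 (0.922). Cep85 and Cnbd2, ranked 1 and 3, are the pair of the 14 related genes that passes the unadjusted threshold above in the fit of all 8 libraries. None of the other 8 is among the 14. Crebrf, a regulator of the CREB3 stress factors, had a log2 difference of 0.38 ± 0.09 (SE), and Cacna2d1, a calcium channel subunit, had 0.99 ± 0.23. Klhl38 had 1.42 ± 0.38, from a level of at most 15.6 normalised counts in WT libraries. Mau2, a cohesin loader, had 0.08 ± 0.06, so a like pattern did not need a large difference. Malat1 ranked 915 with r = 0.574, and Neat1 2573 with r = 0.374.

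**Figure D4:**
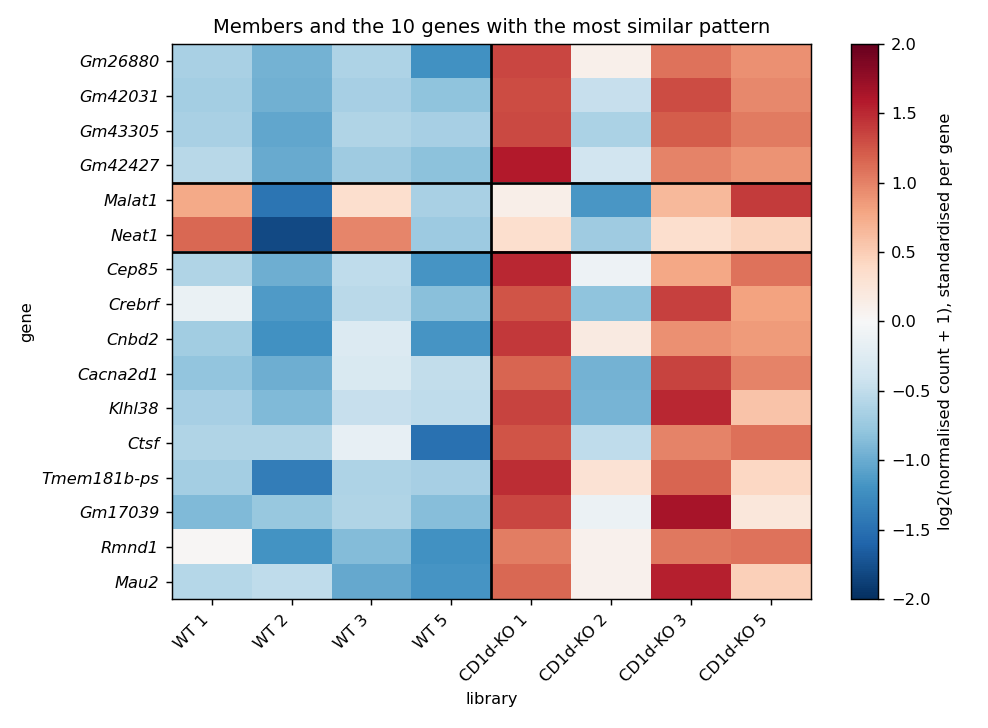
Levels per library (columns) of the members and the 10 most similar genes (rows), as log2(normalised count + 1) standardised per gene, from blue (low) to red (high). The similar genes were picked for this pattern, with CD1d-KO libraries 1, 3 and 5 high and library 2 nearer to WT, whereas Malat1 and Neat1 show another order of libraries.

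The neighbours of the Gm RNAs did not pass the test for a difference. The nearest tested genes were Gm13241 and Gm13237 at Gm26880, Man2b1 and Vps35 at Gm42031, Abhd4 and Oxa1l at Gm43305, and Gm7879 and Tapt1 at Gm42427. Man2b1, a lysosomal mannosidase 27.6 kb from Gm42031, had a log2 difference of 0.01 ± 0.09 (SE). Abhd4, a lipid hydrolase 21.8 kb from Gm43305, had -0.11 ± 0.06, and Tapt1, 31.9 kb from Gm42427, had -0.16 ± 0.07. The exception in size was Gm7879, 224 kb from Gm42427, with 0, 0, 8.35 and 6.51 normalised counts in WT libraries and between 12.4 and 16.3 in CD1d-KO libraries, and an edgeR adjusted p of 0.341. Gm26880 overlaps Zfp981 on the opposite strand, a zinc finger gene with at most 1.20 normalised counts in WT libraries and at most 11.1 in CD1d-KO libraries. Whether the authors counted reads by strand is not given in the sources used here, and without strand reads of this pair cannot be told apart.

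Malat1 and Neat1 did not pass the test for a difference. Malat1 had 81345, 57365, 76220 and 65294 normalised counts in WT libraries 1, 2, 3 and 5 and 73649, 60147, 80103 and 90173 in CD1d-KO libraries. The groups overlapped widely, and the log2 difference was 0.12 ± 0.11 (SE, n = 4 per group; adjusted p = 0.745 by edgeR), with CD1d-KO higher in 3 of 4 replicate numbers. It made up 0.362% to 0.599% of all expected counts and was the third most abundant long RNA by mean TPM, at 2119 ± 501 TPM in WT and 2342 ± 416 TPM in CD1d-KO cells (SD).

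Neat1 had 17923, 11057, 17400 and 13183 normalised counts in WT libraries and 15673, 13236, 15687 and 15983 in CD1d-KO libraries 1, 2, 3 and 5. Its log2 difference was 0.05 ± 0.11 (SE; adjusted p = 0.909 by edgeR), with 2 of 4 replicate numbers higher. Replicate 2 was lowest in both genotypes for both RNAs, as it was for Gm42031, Gm43305 and Gm42427. In all 8 libraries Malat1 exceeded Neat1 on the TPM scale, by 4.98- to 6.01-fold in WT and 5.12- to 7.94-fold in CD1d-KO cells. The 2 more abundant long RNAs were Gm26917 and Gm42418, models that carry ribosomal RNA sequence, with log2 differences of 0.09 ± 0.10 and 0.07 ± 0.10. Gm26809, another abundant lincRNA model, had 0.26 ± 0.08 (edgeR unadjusted p = 0.0141, adjusted p = 0.246). It was higher in CD1d-KO in 4 of 4 replicate numbers, but its groups overlapped.

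The isoform mix in the libraries gave a readout of Malat1 and Neat1 that the choice of genes had not used. The deposited length of a gene is the mean length of its transcripts weighted by their abundance. Poly(A) selection disfavours RNAs without such a tail, among them the long Neat1 isoform. These lengths therefore describe the selected RNA and need not give the mix in the cells. For Neat1 this length was 3799, 4041, 4811 and 3707 bases in WT libraries 1, 2, 3 and 5 and 3770, 4670, 4992 and 3946 bases in CD1d-KO libraries, far from its longest transcript of 20771 bases. The groups overlapped, and the difference of 255 bases was not past the threshold (two-sided exact permutation test, p = 0.543, also 0.543 after adjustment over the 2 genes). For Malat1 the mean length was 3452 ± 113 bases (SD) in WT and 3359 ± 156 bases in CD1d-KO cells (two-sided exact permutation test, p = 0.257, adjusted 0.514). The smallest p this test can give with 4 against 4 libraries is 0.0286.

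Genes of the compartments in which Malat1 and Neat1 reside had small differences. Of 15 paraspeckle proteins, 1 (Taf15, 0.26 ± 0.07) was higher and 0 lower at an unadjusted p under 0.05, with a median log2 difference of -0.03 against 0.0047 over all tested genes. Sfpq, an essential paraspeckle protein, had -0.05 ± 0.07 (SE) and Hnrnpk -0.05 ± 0.07. Of 19 nuclear speckle proteins, 0 passed in either direction, with a median of -0.02, and the scaffold proteins Srrm2 and Son had 0.01 ± 0.09 and 0.02 ± 0.08. Of 21 tested factors of nuclear RNA decay, 3 were lower and 0 higher, with a median of -0.09, namely the exosome subunits Exosc1 at -0.30 ± 0.11 and Dis3, the catalytic one, at -0.27 ± 0.10, and the cap-binding protein Ncbp2 at -0.27 ± 0.09. None of these lists held a gene called by edgeR or DESeq2. Over all tested genes, 7.35% were higher and 5.01% lower at the unadjusted threshold.

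Of 29 tested long non-coding RNAs with a given name, 3 were higher and 0 lower at an unadjusted p under 0.05, against 7.35% and 5.01% of all tested genes. The median log2 difference was -0.02, with 0 called by edgeR and 1, Xist, by DESeq2. Zfas1 had 0.32 ± 0.09 (SE) and Mir155hg, the host of miR-155, had 0.86 ± 0.19. Xist, the most abundant of the 3, which coats the inactive X chromosome of female cells, had 7331, 6278, 8260 and 6988 normalised counts in WT libraries and 9438, 9571, 14974 and 14737 in CD1d-KO libraries 1, 2, 3 and 5. Its groups did not overlap, unlike those of Malat1 and Neat1, and its log2 difference was 0.73 ± 0.12 (SE; adjusted p = 0.0575 by edgeR). Tug1 had -0.02 ± 0.08 and Mir22hg -0.15 ± 0.08. Gas5, a snoRNA host, had -0.06 ± 0.07. AW112010, an inducible long RNA of immune cells, is named for its abundance and had 1.32 ± 0.47. By edgeR its unadjusted p was 0.0230 and its adjusted p 0.302. It had 159, 961, 1203 and 1013 normalised counts in WT libraries and 814, 546, 3555 and 4049 in CD1d-KO libraries 1, 2, 3 and 5. AW112010 was thus higher in CD1d-KO in 3 of 4 replicate numbers, and its groups overlapped. RNAs without a poly(A) tail, such as Rn7s1 of the signal recognition particle (0.08 ± 0.20), were not past the threshold, with 0 of 5 tested in either direction. The same was so for 4 tested ribosomal RNA-like genes, whose median was 0.11.

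Genes that silence endogenous retroviruses, a list added after the sequence of the Gm RNAs was seen, had a median difference near that of all genes. Of 23 members, 3 were higher and 0 lower at an unadjusted p under 0.05, against 7.35% and 5.01% of all tested genes. The median log2 difference was 0.03, and 0 were called by either tool. The 3 were Daxx, an H3.3 chaperone, with 0.49 ± 0.12 (SE), the histone methyltransferase Ehmt2 with 0.20 ± 0.08, and Atf7ip, a partner of SETDB1, with 0.22 ± 0.06. Of 13 genes of retrovirus restriction and entry, also added later, 7 were higher and 0 lower at that threshold, with a median of 0.32. Without replicate 1, 4 of 13 were higher and 0 lower, with a median of 0.26. Of the 13, edgeR called 0 and DESeq2 1, the RNA helicase gene Mov10 at 0.68 ± 0.15. DESeq2 called 0.795% of all genes it tested. The 13 include Samhd1, which depletes nucleotides, with 0.51 ± 0.14 (adjusted p = 0.200 by edgeR). Apobec3, which holds the run of 77 identical bases on its opposite strand, had 0.39 ± 0.15 (adjusted p = 0.351 by edgeR).

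Interferon-stimulated genes, which are also induced by nucleic acids of viral type, were described because several of the restriction factors belong to them. Of 26 genes, 24 were higher and 0 lower in CD1d-KO at an unadjusted p under 0.05, against 7.35% and 5.01% of all tested genes, with a median log2 difference of 0.79 and 0 called by either tool. The median was 0.52 without replicate 1, where 18 of 26 were higher at that threshold, and 0.49 with no replicate block. Irf7, which drives type I interferon expression, had 0.90 ± 0.22 (SE), and the antiviral enzyme gene Rsad2 had 1.16 ± 0.34. Their sum was 14840, 118701, 242780 and 71604 normalised counts in WT libraries 1, 2, 3 and 5 and 46152, 142404, 279400 and 169860 in CD1d-KO libraries. It was higher in CD1d-KO within each replicate number, by 3.11-, 1.20-, 1.15- and 2.37-fold in replicates 1, 2, 3 and 5. The summed Gm RNAs were higher by 7.51-, 1.71-, 6.64- and 5.87-fold in the same replicates. A relation between both sums was not tested.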

How the data were processed

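The 8 libraries, 4 of each genotype, are poly(A)-selected and single-end. Per its methods and the labels, the authors trimmed reads with cutadapt, aligned them with STAR (2.5.2a) and quantified them with RSEM (1.3.0) against Ensembl release 86 of GRCm38. The deposited tables give per gene expected counts, TPM, and lengths weighted by isoform abundance. Strand settings are not given in the sources used here.

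Expected counts were rounded, filtered with filterByExpr, scaled by TMM and fitted with edgeR 4.0.16 (quasi-likelihood test, R 4.3.3) on genotype and replicate number, as in the study's model, with Benjamini-Hochberg adjustment over 13040 genes. A gene was called at adjusted p under 0.01 and fold above 1.5. Libraries of the same number deviated together (correlations 0.487, 0.387, 0.505 and 0.207 for replicates 1, 2, 3 and 5), although for WT library 5 a differently numbered CD1d-KO library gave 0.220, so the number was kept as a block. Alternatives were DESeq2 1.42.0, limma 3.58.1 on log2(TPM + 1) and log2(TPM + 0.1), other scalings and filters, no block, and leaving out each replicate. Scripts were tested on simulated data.

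Symbols came from GENCODE M21 (48435 of 48795 identifiers matched). Shared sequence was found with blastn 2.17.0 among 118107 deposited transcripts with a sequence (95% identity or more over at least 75 bases). The members and lists were chosen with earlier results of these data known, and 2 lists on retroviruses were added after the members' values and sequence were seen. Genes named are the 6 members, Cd1d1, genes overlapping a member and the nearest tested gene on each side, the 3 most abundant tested genes of each list and any called, the 10 genes of highest correlation with the mean Gm pattern, and the 5 most abundant other long RNAs. Some genes of the lists are not reported here. The related genes, and list genes named beyond this rule because they passed an unadjusted threshold, were chosen after their values were seen.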

Additional observations from a re-analysis of the deposited data

Results flagged for a closer look

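A library was set apart when its gap to the nearest of the other 3 took up most of its group's range (Dixon's 95% limit for 4 samples). This was looked for in 38 groups of 4 libraries, and chance flags about 1 in 20 groups. Neat1 was low in CD1d-KO library 2, at 13236 normalised counts, below 3 libraries within a narrow range. Cd1d1 was high in the library labelled CD1d-KO replicate 1, at 60.6 normalised counts, against at most 1.14 in the other 3. Tmem181b-ps, a transcribed pseudogene among the most similar genes, was low in WT library 2, at 160.1 normalised counts. Rmnd1, which supports mitochondrial translation, was low in CD1d-KO library 2, at 137 normalised counts. The causes were not tested. The 4 Gm RNAs themselves gave no such gap in either group, although library 2 was the lowest of the CD1d-KO group for each.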

How the results depend on the processing

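Adding or removing the replicate block, scalings, filters and tools kept the 4 Gm RNAs higher in CD1d-KO. The count of called genes, 5 in the fit reported, became 236 with no filter on counts, 104 with DESeq2, and 3 with limma on log2(TPM + 1), with log2(TPM + 0.1) and with no replicate block. It ranged from 3 to 22 when 1 replicate was left out, with 22 without replicate 2 and 3 without replicate 3 or 5. Malat1 kept its sign except without replicate 5, at -0.0012, within a range of -0.0012 to 0.20 over replicates left out. Neat1 turned to -0.038 with limma on either TPM scale, to -0.019 without replicate 2 and to -0.028 without replicate 5, within -0.028 to 0.13. Neither gene was called under any alternative run, with adjusted p between 0.688 and 0.999. The length differences of Neat1 and Malat1 kept their sign in all alternatives run. They also stayed on the same side of the threshold, but 2 kinds of alternative could not cross it. The smallest possible p is 0.125 for sign flips within pairs and 0.1 for the permutation test with 1 replicate left out. Malat1 had that 0.1 without replicate 5, at -200 bases (permutation test). Nothing is read from the p-values of these alternatives. Of 52 values of the Gm RNAs with the members counted one by one, none moved by more than the spread between pairs. The alternatives that summed features were chosen after seeing the data, as was leaving out replicate 1 or 2 for the 10 similar genes, where all 10 kept their direction. Without the replicate block, Cnbd2 had adjusted p = 0.317 and Cep85 0.503. Between 13698864 and 19059432 expected counts per library leave members of few counts, such as Gm42427, less precise than Malat1. The causes of these changes were not tested.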

Other observations

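At more than 3-fold above the highest WT library in CD1d-KO libraries 1, 3 and 5, 7 of 13040 tested genes were found, which were the 4 Gm RNAs, Rps3a2, Rps3a3 and Tpm3-rs7. These were looked at after their values were seen. Rps3a2 and Rps3a3 are pseudogenes of a ribosomal protein gene and Tpm3-rs7 is related to a tropomyosin gene, and reads of such copies cannot be told apart from those of their parent genes where the sequence is the same. In CD1d-KO library 2 they were within the range of the other 3 CD1d-KO libraries. Rps3a3 had between 9.78 and 30.5 normalised counts in WT libraries, and 2067, 3880, 4777 and 3701 in CD1d-KO libraries 1, 2, 3 and 5. Tpm3-rs7 had between 82.0 and 122 in WT libraries, and 1991, 4677, 5059 and 4680 in CD1d-KO libraries. Rps3a2 had between 84.7 and 172 in WT libraries, and 3055, 5039, 5662 and 4343 in CD1d-KO libraries. In each, the library labelled CD1d-KO replicate 1, which retained Cd1d1, was the lowest of its group and still far above WT. At more than 2-fold, Cnbd2, Klhl38 and Dclk2 were added to the same set, none of them annotated as a long non-coding RNA. Dclk2 (chr3:86786151-86920852) lies near Cd1d1 (chr3:86995834-86999441) on the same chromosome. It had at most 28.5 normalised counts in WT libraries and between 58.4 and 97.8 in CD1d-KO libraries, with 73.5 in library 1. The part of strain background in this was not tested.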
